A study of Homo sapiens with 6 samples.

Results

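Cells of A549, an established human lung adenocarcinoma line, received one of the code-named compounds Comp.2 and Comp.4, each at 2 µM, and their transcript levels 2 days later are compared here with each other. The comparison uses 4 of the 6 arrays of the series, chosen by title: 2 titled Comp.4 and 2 titled Comp.2. The other 2 arrays are of cells given vehicle alone at the same time point, and their levels serve to say which compound moved a gene and to help estimate the spread. All groups were grown in serum-containing DMEM and treated from a day after plating, and the labels name no genetic change. The series title calls the compounds histone acetyltransferase inhibitors with sequence specificity, and its design text gives both the name 646-PIP (664-PIP in the treatment protocol). The labels do not say how Comp.2 and Comp.4 differ in structure, so each is called by its code name. They also do not say whether the arrays of a group came from separate cultures, so p-values measure only the spread between these arrays, which may be technical. With 1 dose, 1 time point and 2 arrays a group, 1 pair of compounds was compared.

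Histone acetyltransferases such as EP300 and CREBBP add acetyl groups to histone tails, which marks active promoters and enhancers. The transcription factor p53 induces genes of growth arrest, DNA repair and cell death. The integrated stress response raises the factor ATF4, which drives genes for amino acid synthesis, amino acid uptake and tRNA charging. Small nucleolar RNAs guide the chemical modification of ribosomal RNA (box H/ACA members direct pseudouridine, box C/D members ribose methylation), and the related Cajal body RNAs act on the RNAs of the spliceosome. Most of them are cut out of the introns of host genes.

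The arrays were alike over 22395 named genes. The SD of the log2 difference was 0.183 between the Comp.2 arrays and 0.182 between the Comp.4 arrays, against 0.213 to 0.223 between the compounds. It was smaller, 0.158, between the vehicle arrays, whose spread also enters the fit of the contrast. All 6 measured epithelial markers were brighter than the median gene (5.35, mean log2 level over the 6 arrays), from 6.57 for KRT19 to 10.2 for CDH1. The defining markers of fibroblasts (6 measured, 2.78 to 5.44), endothelium (7, 3.04 to 5.74) and leukocytes (9, 2.69 to 6.03) lay mostly below the median gene, with 1, 1 and 2 above it, and no marker of the 4 cell types passed the threshold between the compounds.

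The direct contrast asked which transcripts end at different levels under Comp.4 and Comp.2. Short structured RNAs made up most of what was higher under Comp.4. Protein-coding genes were most of what was lower, as they were of all genes tested (17065 of 22395). Of 22395 genes, 43 were higher under Comp.4 (0.192% of those tested) and 40 lower (0.179%) at an adjusted p under 0.05 in limma, a linear model with a moderated variance. Among the 43 higher genes were 31 short structured RNAs (of 887 tested) and 12 protein-coding genes (of 17065). Among the 40 lower genes were 31 protein-coding genes, 7 long noncoding RNAs or pseudogenes (of 3425 tested) and 2 microRNA genes (of 1018). No short structured RNA was lower. Folds of 2 or more were reached by 9 higher and 4 lower genes, and the medians were 1.72-fold and 1.63-fold. The compounds' arrays did not overlap in any of the 83 genes, nor in 45.3% of all genes tested.

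**Figure D1:**
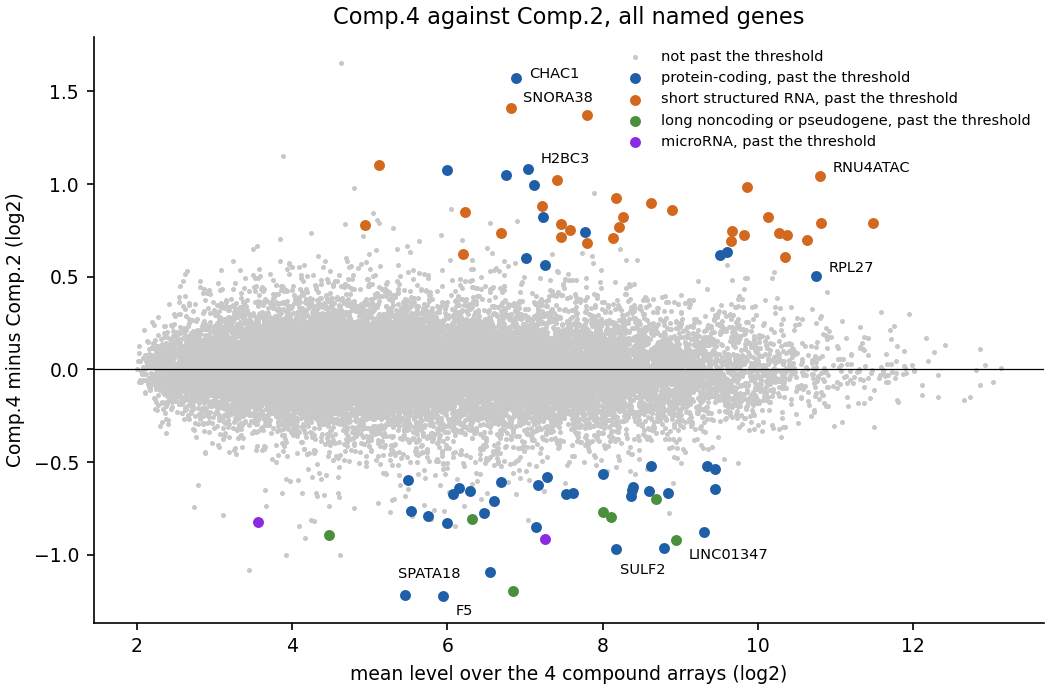
Difference between the compounds (Comp.4 minus Comp.2, log2) against the mean level over the 4 compound arrays (log2), 1 point per named gene, with the 83 genes past the threshold in colour by class. The short structured RNAs past the threshold all lie above 0, and CHAC1 has the largest difference among the 83, 1.57.

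These calls were close to the threshold. The smallest adjusted p was 0.0166, and it was 0.0682 when limma was fitted to the 4 compound arrays alone, where no gene passed (1448 higher and 1400 lower at an unadjusted p under 0.05, against 1684, or 7.52%, and 1668, or 7.45%, with all 6 arrays). Without any 1 of the 6 arrays, every one of the 83 genes had an adjusted p above the threshold, and 1 other gene passed, SNORA72, when the first Comp.2 array was left out. That RNA read 4.58 and 3.04 on the Comp.2 arrays and 5.38 and 5.54 on the Comp.4 arrays, so the Comp.2 arrays themselves lay far apart. With the variance allowed to follow the mean level, 484 genes were higher (2.16%) and 591 lower (2.64%), and these held all 83. Among the 11197 genes brighter than the median gene alone, 324 (2.89%) and 392 (3.5%) passed. Repeating the quantile normalization, a scaling, left 33 of the higher and 31 of the lower calls. Among the lower calls, those of C5, GPRC5A, METTL2B, MUC13, ACY3, E2F7, HELZ, SAP130 and TGFB2 ended. Higher calls that ended included those of ETV4, RPL27, RSL24D1, RNU1-21P and SNORA38, and of the 4 RNU-named calls 2 stayed. The mean over probe sets ended the call of LINC01000.

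The vehicle arrays show where each of the 83 differences came from, as a description without a test, since both compounds are set against the same vehicle arrays. A gene was put on the side of 1 compound where the other compound's mean differed from vehicle by less than 25% of the difference between the compounds. By that rule 15 genes lay on the Comp.2 side and 17 on the Comp.4 side. A further 39 had vehicle between the means of the compounds, and in 12 both means lay on the same side of vehicle, at unequal levels. Of the 43 higher genes, 5 were past the limma threshold for Comp.2 against vehicle and 7 for Comp.4 against vehicle. Of the 40 lower genes these were 14 and 7. The positions are thus of means, and most of the genes had no call against vehicle. Among the 31 short structured RNAs, 20 were lower under Comp.2 and higher under Comp.4 than with vehicle, 8 were on the Comp.4 side, 1 was on the Comp.2 side and 2 were up under both. Of the 43 protein-coding genes, 12 were on the Comp.2 side (9 lower under Comp.4, 3 higher) and 5 on the Comp.4 side (4 and 1). Vehicle lay between the compounds for 18 (12 and 6), and 8 had both means on the same side of vehicle (6 and 2).

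**Figure D2:**
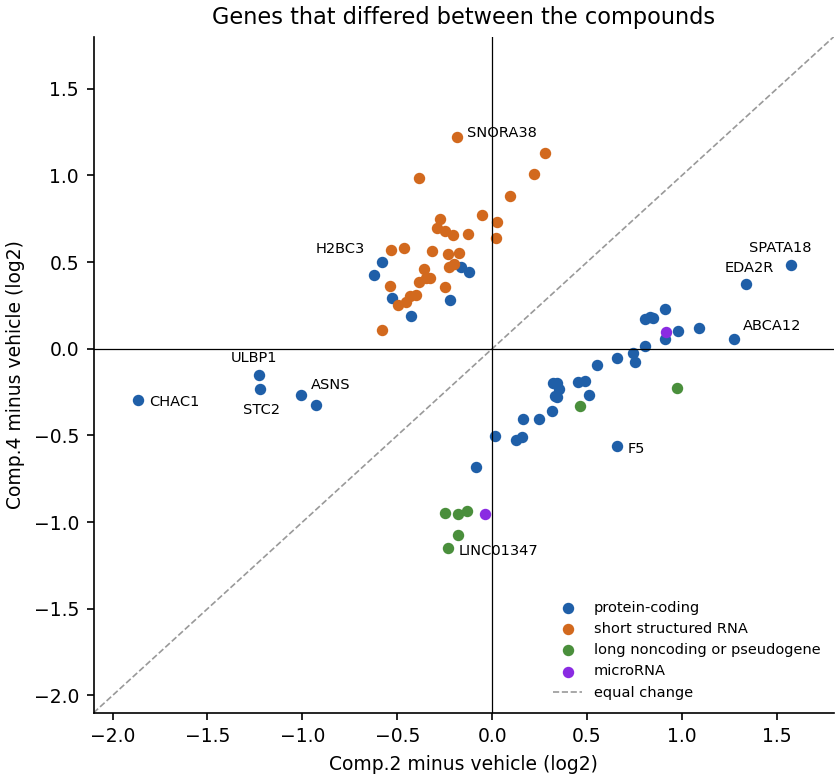
Mean change from vehicle under Comp.4 (log2, vertical) against that under Comp.2 (log2, horizontal) for the 83 genes that differed between the compounds, by class; the dashed line marks equal change. CHAC1, ULBP1 and STC2 lie far to the left near a Comp.4 change of 0, SPATA18 and EDA2R far to the right, and most short structured RNAs in the upper left part.

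A few genes of the integrated stress response were at clearly lower levels under Comp.2 than under Comp.4, CHAC1 above all. Of 21 measured factors, regulators and other genes of this response 2 were higher under Comp.4, CHAC1 and STC2, and neither is a transcription factor. Of 14 genes of amino acid synthesis and folate metabolism 1 was higher (ASNS). Of 19 cytosolic aminoacyl-tRNA synthetases 1 was higher (CARS1) and of 10 amino acid transporters 0, and no member of the 4 lists was lower. The median differences were 0.19, 0.29, 0.09 and 0.23 on the log2 scale, beside 0.0084 for all genes tested. CHAC1 encodes an enzyme that breaks down glutathione. It read 5.98 and 6.23 on the Comp.2 arrays, 7.58 and 7.77 on the Comp.4 arrays and 8.02 and 7.91 with vehicle (log2 levels). The Comp.4 arrays were thus close under vehicle and the Comp.2 arrays far below, a 2.97-fold difference (log2 1.57, SE 0.11, limma adjusted p = 0.0166).

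STC2, a secreted glycoprotein induced by stress, showed the same order, with 6.56 and 6.69 under Comp.2, 7.62 and 7.62 under Comp.4 and 7.87 and 7.83 with vehicle (difference 0.99, SE 0.08). ASNS makes asparagine. Its levels were 7.50 and 7.31 under Comp.2, 8.16 and 8.12 under Comp.4 and 8.44 and 8.38 with vehicle, so that both compounds lay below vehicle and Comp.2 furthest (0.74, SE 0.09). CARS1, which loads cysteine onto its tRNA, read 6.76 and 6.66 under Comp.2 against 7.30 and 7.33 under Comp.4 and 7.64 and 7.63 with vehicle (0.60, SE 0.07). All 19 synthetases had a difference above 0, though 18 did not pass, and the smallest was 0.0049 for QARS1.

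ULBP1, a cell-surface ligand of the natural killer receptor NKG2D, read 5.48 and 5.44 under Comp.2 and 6.59 and 6.48 under Comp.4, against 6.83 and 6.54 with vehicle. It was 2.11-fold higher under Comp.4 (log2 1.08, SE 0.11) and the 1 member of 7 measured NKG2D ligands to pass, while ULBP2 had 0.45 (adjusted p = 0.128), and ULBP3 and MICB had 0.00 and -0.02.

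Several stress response genes had sizeable differences that did not pass. TRIB3, a pseudokinase that feeds back on ATF4, had 0.63 (adjusted p = 0.059), ATF4 itself 0.53 (adjusted p = 0.059) and MTHFD2 of mitochondrial folate metabolism 0.59 (adjusted p = 0.059). The transporter genes SLC1A5 (0.50, 95% interval 0.31 to 0.68, adjusted p = 0.0672) and SLC43A1 (0.35, 0.19 to 0.51, adjusted p = 0.101) were the largest of their list, and the cystine transporter gene SLC7A11 had -0.16. PSAT1 and PHGDH, the serine synthesis genes, had 0.33 and 0.25. With the variance trend 7 of the 14 synthesis genes, 5 of the 10 transporters and 5 of the 19 synthetases were higher. In the list of 21 factors, regulators and other genes 5 were higher and 1 was lower. In a separate list, none of 16 unfolded protein response genes passed and their median was 0.05, and with the variance trend 1 was higher and 0 lower. The largest sizes among the brighter genes of that list were 0.27 for HERPUD1 (0.09 to 0.44) and -0.16 for SEL1L (-0.32 to 0.01). Brighter genes are those with a mean level above the median gene.

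The promoters of CHAC1 and ASNS are shown because ATF4 binds elements with a TGATG core in genes of this response. Each sequence is RefSeq's for GRCh38.p14, 250 bases before the gene start and 50 from it, written in the direction of transcription, with matches to TGATGNA on either strand in capitals.
CHAC1 (chr15:40953221-40953520, plus strand): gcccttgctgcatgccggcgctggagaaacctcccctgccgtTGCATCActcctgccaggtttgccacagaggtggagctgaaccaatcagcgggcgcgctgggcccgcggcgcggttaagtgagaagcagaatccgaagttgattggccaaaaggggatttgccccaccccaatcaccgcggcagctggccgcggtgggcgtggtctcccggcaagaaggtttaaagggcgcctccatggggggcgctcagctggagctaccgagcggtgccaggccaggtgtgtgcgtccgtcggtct
ASNS (chr7:97872359-97872658, minus strand): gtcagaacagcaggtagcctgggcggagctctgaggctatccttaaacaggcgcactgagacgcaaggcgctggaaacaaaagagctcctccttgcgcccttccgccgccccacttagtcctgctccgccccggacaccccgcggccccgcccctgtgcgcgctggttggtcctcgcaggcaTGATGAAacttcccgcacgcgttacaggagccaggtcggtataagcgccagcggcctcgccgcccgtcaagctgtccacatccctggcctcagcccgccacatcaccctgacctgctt
The match began at -208 in CHAC1, on the opposite strand, and at -68 in ASNS. CARS1 had a match at -1 and STC2 had none in this window. The RefSeq table gives some genes several starts, ASNS and CARS1 among them, and the first listed is used for each. The letters stood in 9.99% of all 35116 windows of this length, and in 23 of the 78 windows that belong to measured members of the 4 lists. Counted by gene, they stood in 12.1% of all 27305 genes with a window and in 20 of the 52 members with a window. A match is a description of letters and shows no binding.

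**Figure D3:**
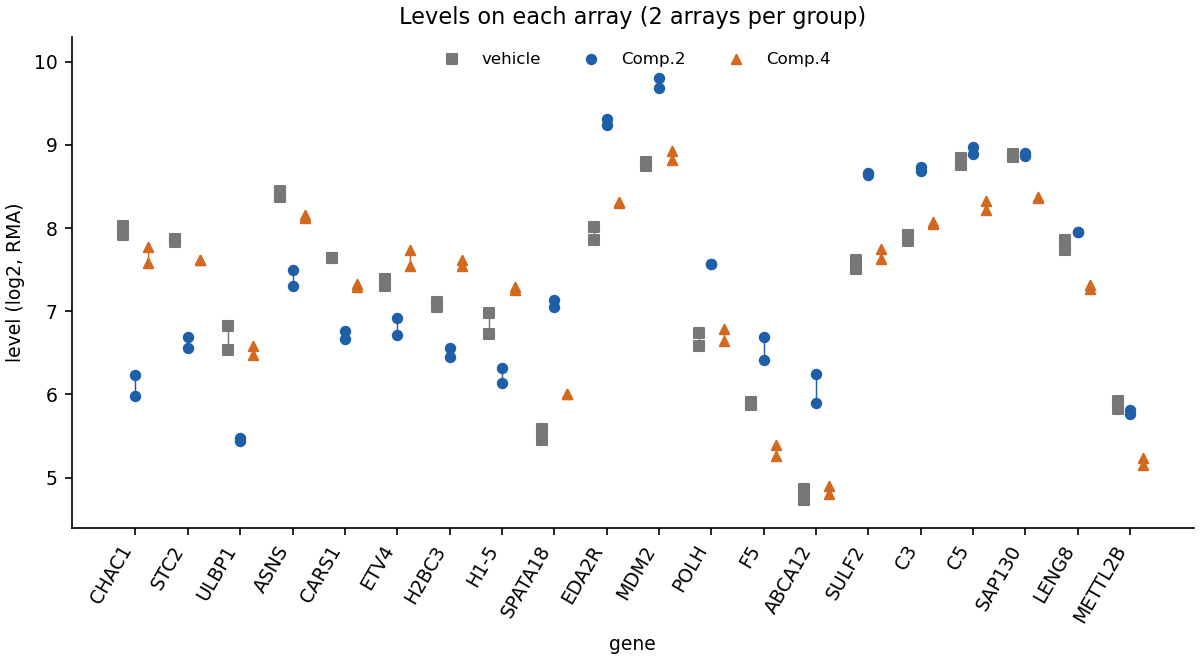
Level on each array (log2, RMA) of 20 protein-coding genes that differed between the compounds, 2 arrays per group joined by a line, with vehicle as squares, Comp.2 as circles and Comp.4 as triangles. For CHAC1, STC2 and ULBP1 the Comp.2 arrays lie apart from the other groups, and for C5, SAP130, LENG8 and METTL2B the Comp.4 arrays do.

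Of 33 measured genes that p53 induces, 5 were lower under Comp.4 and none higher; the median difference was -0.44 against 0.0084 for all genes, and 31 of the 33 lay below 0. SPATA18, which acts in mitochondrial quality control, read 7.13 and 7.05 under Comp.2, 6.00 and 6.00 under Comp.4 and 5.58 and 5.45 with vehicle. Comp.4 lay between vehicle and Comp.2, and the compounds differed 2.13-fold (log2 -1.09, SE 0.08, limma adjusted p = 0.0166). EDA2R, a receptor of the TNF receptor family, had 9.24 and 9.31, 8.31 and 8.31, and 8.02 and 7.86 in the same order (-0.96, SE 0.08).

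For MDM2 and POLH the Comp.4 arrays were beside vehicle. MDM2, the ubiquitin ligase that limits p53, read 9.81 and 9.69 under Comp.2, 8.82 and 8.92 under Comp.4 and 8.75 and 8.79 with vehicle (-0.88, SE 0.08). POLH, a DNA polymerase that copies past UV damage, read 7.56 and 7.57, 6.65 and 6.79, and 6.74 and 6.58 (-0.85, SE 0.09). DDB2, which recognises UV damage, read 9.09 and 9.25 under Comp.2 against 8.49 and 8.52 under Comp.4 (-0.67, SE 0.08). PURPL, a long noncoding RNA induced by p53, had 7.38 and 7.51 under Comp.2, 6.22 and 6.28 under Comp.4 and 6.40 and 6.55 with vehicle, a 2.29-fold difference (-1.20, SE 0.09).

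Other targets had differences of similar size that did not pass. TP53INP1 had -0.76 (adjusted p = 0.109), the RNA-binding protein gene ZMAT3 -0.67 (adjusted p = 0.081), the death receptor gene FAS -0.61 (adjusted p = 0.066), BAX, a pore-forming death effector, -0.61 (-0.88 to -0.34, adjusted p = 0.0989), and RPS27L -0.56 (adjusted p = 0.059). The targets nearest 0 were SESN2 (-0.00), SERTAD1 (0.03) and TNFRSF10A (-0.05), and PMAIP1, a BH3-only death gene, had 0.26 (0.07 to 0.45, adjusted p = 0.2295). With the variance trend 23 of the 33 were lower and none higher. The 16 genes of the BCL2 family, which hold BAX and PMAIP1, had a median of -0.0017 and none passed. EDA2R was the 1 of 13 TNF receptor family genes that passed.

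Replication-dependent histone genes are as a class transcribed in S phase and lack introns. Of 28 measured genes listed in this class, 2 were higher under Comp.4 and none lower, with a median of 0.23, and 22 had a difference above 0. Among the 18 brighter members the median was 0.24 and 14 lay above 0. The only H3 and H4 genes in the list were H3C13 (0.09) and H4C7 (-0.04, mean log2 level 2.55), so the list describes mainly H1, H2A and H2B genes. H2BC3, a histone H2B gene, read 6.56 and 6.45 under Comp.2, 7.62 and 7.55 under Comp.4 and 7.11 and 7.06 with vehicle. The linker histone gene H1-5 read 6.32 and 6.13 under Comp.2, 7.26 and 7.30 under Comp.4 and 6.72 and 6.98 with vehicle. In both genes vehicle lay between the compounds, and the differences were 2.12-fold (log2 1.08, SE 0.08) and 2.07-fold (1.05, SE 0.11). H2BC13 (0.59), H2BC9 (0.58), H2AC25 (0.57) and H1-3 (0.54) did not pass. Histone genes have near-identical copies, so the signals of single members are uncertain.

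The 7 measured variant histones, made outside S phase as well, had a median of 0.18 and none passed, the largest being H1-10 (0.47, 0.26 to 0.69, adjusted p = 0.101) and H2AJ (0.27, -0.07 to 0.60). Factors of histone transcription and 3' end processing (10 measured) had a median of 0.04, with SLBP, the protein that binds the histone mRNA stem-loop, at 0.24 (0.07 to 0.42) and ZNF473 at 0.11 (-0.17 to 0.38). No gene passed among 30 of S-phase entry and replication (median 0.03) or 27 of mitosis (median 0.0021). The largest sizes in the first list were E2F1 (0.39, 0.04 to 0.73), GINS2 (0.37, 0.15 to 0.59) and, in the other direction, the helicase gene MCM4 (-0.24, -0.42 to -0.07), and in the mitosis list CENPF (-0.23, -0.41 to -0.06) and MKI67 (-0.20, -0.37 to -0.03). With the variance trend 11 of the 28 replication-dependent histone genes were higher and 0 lower, 3 of the S-phase genes were higher and 1 lower, and 4 of the mitosis genes were lower and 0 higher.

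The promoters of H2BC3 and H1-5 are shown as the 2 histone members that differed, with matches on either strand to 4 motifs in capitals. These are ATTTGCA, which is part of the octamer of H2B promoters, the TATA box core TATAAA, the H1 promoter element AAACACA, and the CCAAT box.
H2BC3 (chr6:26043664-26043963, minus strand): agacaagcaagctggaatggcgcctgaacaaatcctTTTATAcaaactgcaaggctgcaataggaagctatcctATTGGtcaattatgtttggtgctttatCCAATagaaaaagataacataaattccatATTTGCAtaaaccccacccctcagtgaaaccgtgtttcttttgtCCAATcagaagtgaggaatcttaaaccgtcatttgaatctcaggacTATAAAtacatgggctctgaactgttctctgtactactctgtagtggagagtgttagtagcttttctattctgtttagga
H1-5 (chr6:27867539-27867838, minus strand): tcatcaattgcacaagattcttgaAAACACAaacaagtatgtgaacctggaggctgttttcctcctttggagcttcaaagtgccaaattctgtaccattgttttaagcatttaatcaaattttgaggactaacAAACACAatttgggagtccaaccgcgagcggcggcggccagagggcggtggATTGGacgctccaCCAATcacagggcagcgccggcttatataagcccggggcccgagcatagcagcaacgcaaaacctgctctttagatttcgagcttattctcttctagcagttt
The H2BC3 window held ATTTGCA at -120, TATAAA at -214 and -30, and CCAAT at -176, -149 and -76. The H1-5 window held AAACACA at -226 and -117 and CCAAT at -66 and -53. Of all 35116 windows, 4.2% held ATTTGCA, 11.5% TATAAA, 5.64% AAACACA and 34.6% CCAAT. Counted by gene over all 27305 with a window, the shares were 5.13%, 14%, 6.94% and 39.7%. The table has windows for 27 of the 28 measured replication-dependent histone genes, of which 14, 19, 7 and 26 held the same letters, so these letters are shared by members that differed and members that did not.

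The small nucleolar and Cajal body RNAs that passed the threshold were all higher under Comp.4. Of 61 box H/ACA RNAs 12 were higher, of 157 box C/D RNAs 6 and of 20 Cajal body RNAs 4, and none of the 238 was lower. The median differences were 0.44, 0.08 and 0.30, and among the brighter members (42, 60 and 16) they were 0.50, 0.23 and 0.37. SNORA38, a box H/ACA RNA, read 6.34 and 5.89 under Comp.2, 7.60 and 7.44 under Comp.4 and 6.10 and 6.50 with vehicle. Only the Comp.4 arrays stood apart, by 2.65-fold from Comp.2 (log2 1.41, SE 0.18, limma adjusted p = 0.0461). Its other 4 probe sets, which share 1 set of values, had 1.74.

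SNORA50C showed 7.10 and 7.13 under Comp.2, 8.60 and 8.38 under Comp.4 and 7.68 and 7.33 with vehicle (1.37, SE 0.13), so the compounds lay on opposite sides of vehicle. SCARNA6, a Cajal body RNA, had 6.86 and 6.94, 7.99 and 7.85, and 7.18 and 7.16 in the same order (1.02, SE 0.08). SCARNA10 read 8.16 and 8.18 under Comp.2 against 9.09 and 9.05 under Comp.4 (0.90, SE 0.07). Also higher were SNORA33 (0.93), SNORA65 (0.88) and SNORA12 (0.86) of the H/ACA class, and SNORD3C (0.82), SNORD12B (0.77) and SNORD69 (0.75) of the C/D class, and the Cajal body RNA SCARNA23 (0.74). SNORD3C is a copy of the U3 RNA and has near-identical relatives. With the variance trend some members were lower: 27 H/ACA RNAs were higher and 1 lower, 28 C/D RNAs higher and 1 lower, and 10 Cajal body RNAs higher and 2 lower. Without the trend SCARNA3 had -0.56 and SCARNA17 -0.38, and neither passed.

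Other short structured RNAs followed. RNU4ATAC, an RNA of the minor spliceosome, read 10.34 and 10.22 under Comp.2, 11.34 and 11.30 under Comp.4 and 10.70 and 10.79 with vehicle (1.04, SE 0.08). RNU5E-1, a U5 copy of the major spliceosome, had a difference of 0.98 (SE 0.09), and RNU1-21P and RNU5A-8P, named as pseudogenes of U1 and U5, 0.78 and 0.73. Of 143 RNU-named genes these 4 passed, all higher, while the median of all was 0.02 and that of the 23 brighter ones 0.29. Of 447 genes named as 5S RNA 3 were higher (RN5S122 1.10, RN5S150 0.85 and RN5S19 0.79), with a median of 0.05; most are near-identical copies and uncertain as single genes. With the variance trend 12 RNU-named genes were higher and 5 lower, and 17 genes named as 5S RNA were higher and 8 lower. VTRNA1-3, a vault RNA, read 7.88 and 7.83 under Comp.2, 8.72 and 8.64 under Comp.4 and 7.93 and 7.88 with vehicle (0.82, SE 0.07). RPPH1, the RNA of ribonuclease P, was 0.62 higher (SE 0.08), with Comp.2 again beside vehicle. Over all 219 brighter short structured RNAs the median was 0.22 and 79.5% lay above 0, against -0.0058 and 48.4% for the 10077 brighter protein-coding genes.

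**Figure D4:**
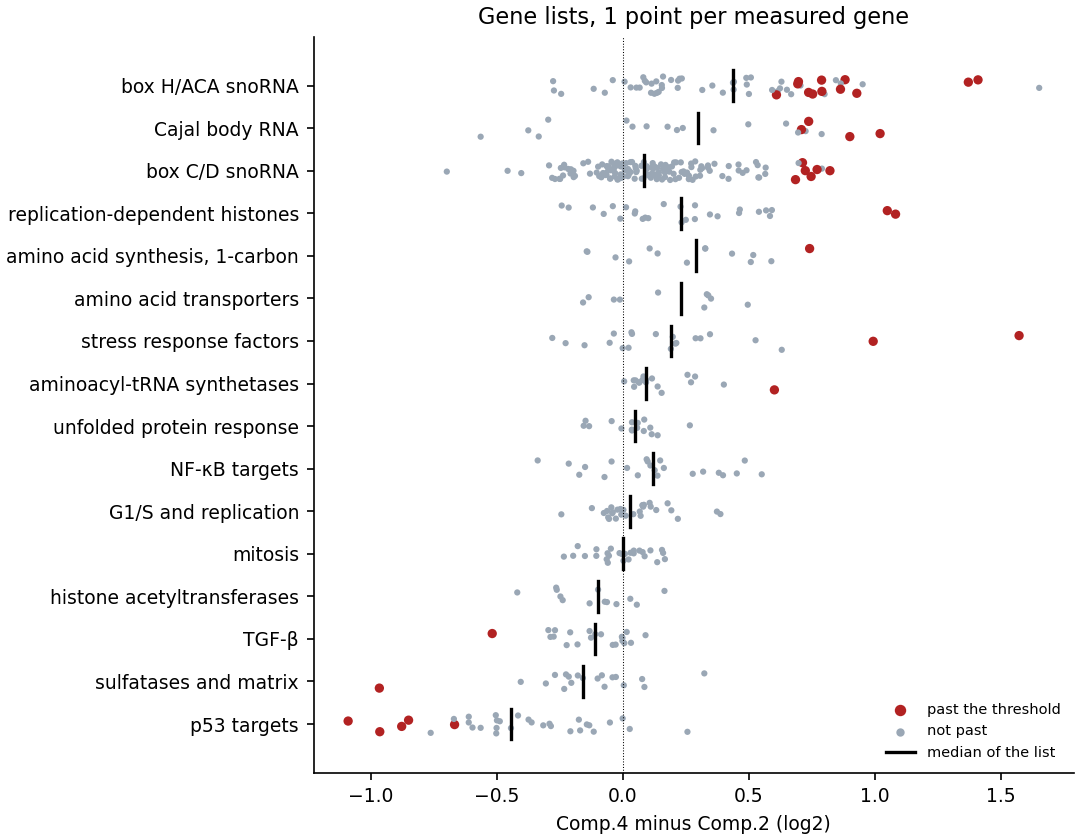
Difference between the compounds (Comp.4 minus Comp.2, log2) for every measured member of 16 gene lists, 1 point per gene, red where the gene passed the threshold, with a bar at the list's median. The box H/ACA RNAs have the highest median, 0.44, and the p53 targets the lowest, -0.44.

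The genes whose spans hold these RNAs did not pass beside them. Of the 22 small nucleolar and Cajal body RNAs that passed, 14 lay within the span of exactly 1 measured gene in the RefSeq table, which has no strand for them, giving 12 host genes. In all 14 pairs the small RNA had the larger difference, which choosing the RNAs for passing and not the hosts nearly fixes in advance. The host differences ran from -0.11 to 0.17 with a median of 0.01, and no host passed. SNORA38 lies in PRRC2A, which had -0.03. SCARNA6 and SCARNA5 (0.71) both lie in ATG16L1, an autophagy gene with 0.04, and SNORD12 (0.68) and SNORD12B both lie in ZFAS1, a noncoding host with 0.05. SNORA65 lies in the ribosomal protein gene RPL12 (0.17), and SNORA12 in CWF19L1 (0.12). Over all 151 pairs, taken whether or not the small RNA passed, the small RNA had the larger difference in 104. The medians were 0.13 for the RNAs and -0.02 for the 91 hosts.

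**Figure D5:**
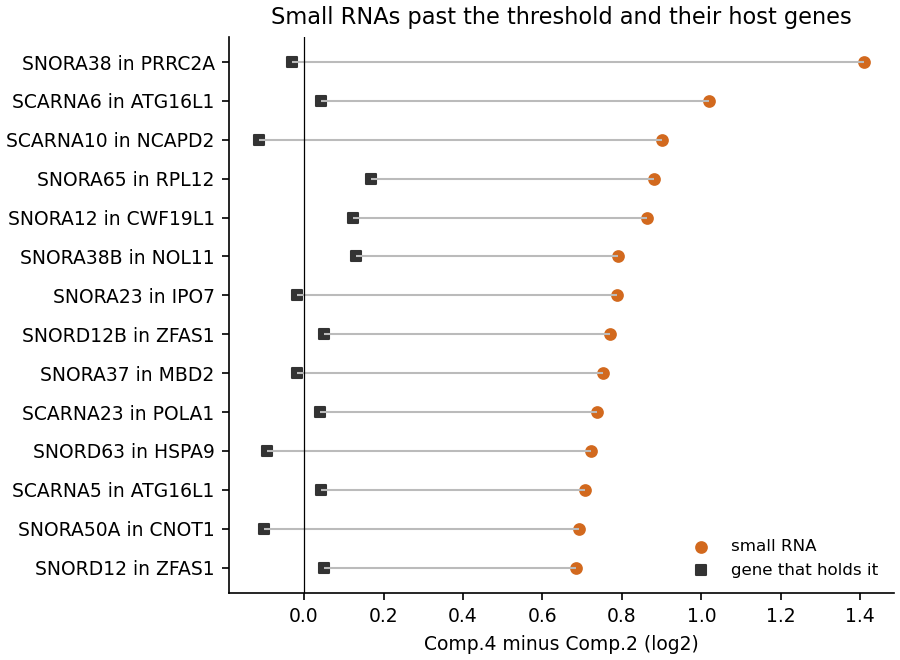
Difference between the compounds (Comp.4 minus Comp.2, log2) of the 14 small RNAs past the threshold with 1 measured host (circles) and of the host gene (squares). The hosts lie between -0.11 and 0.17, and every small RNA lies to the right of its host. The small RNAs shown were chosen for passing the threshold and the hosts were not.

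For the proteins of these particles only the mRNA was measured, and none of 13 core and assembly genes passed (median 0.12). The largest differences were those of NHP2, which encodes an H/ACA core protein, at 0.24 (0.08 to 0.40, adjusted p = 0.194), and SNU13, which encodes a C/D core protein, at 0.22 (-0.06 to 0.51). None of 12 genes listed for RNA processing and decay passed (median -0.09), with the exonucleases XRN1 at -0.26 (-0.44 to -0.08) and DIS3 at -0.21 (-0.38 to -0.05). The assembly gene NAF1 (-0.20) is counted in both lists.

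Apart from the short structured RNAs, with which RNU-named pseudogenes are counted, long noncoding RNAs and pseudogenes that differed were all lower under Comp.4. LINC01347 read 9.38 and 9.43 under Comp.2, 8.58 and 8.39 under Comp.4 and 9.72 and 9.55 with vehicle (-0.92, SE 0.10), and its other 2 probe sets had -0.53 and -0.34. LINC01061 (-0.77, other probe sets -0.82 and -0.89), LINC01000 (-0.70, other probe set -0.20), HNRNPU-AS1 (-0.80) and the pseudogene WHAMMP1 (-0.89) showed the same order, with Comp.4 far below and Comp.2 slightly below vehicle. LINC00294 differed from these: Comp.2, at 8.54 and 8.48, was above vehicle (8.07 and 8.02) and Comp.4, at 7.63 and 7.81, below it (-0.80, SE 0.09). Without strand-specific values, HNRNPU-AS1 cannot be told apart from a partner gene on the other strand.

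The 2 microRNA genes past the threshold were moved by different compounds. MIR570 read 7.74 and 7.68 under Comp.2, 6.76 and 6.83 under Comp.4 and 7.78 and 7.72 with vehicle (-0.91, SE 0.07). MIR3685, at low signal, read 4.08 and 3.88 under Comp.2, 3.10 and 3.21 under Comp.4 and 3.04 and 3.08 with vehicle (-0.82, SE 0.09). MIR570 lies within MIR570HG, a longer transcript that had -0.19 (adjusted p = 0.509). These probe sets do not separate the mature RNA from its precursors. The mature sequences, from RefSeq on GRCh38.p14, are given with the seed (bases 2 to 8) in capitals to show that the 3 products share no seed.
hsa-miR-570-5p (chr3:195699425-195699446, plus strand): aAAGGUAAuugcaguuuuuccc
hsa-miR-570-3p (chr3:195699460-195699481, plus strand): cGAAAACAgcaauuaccuuugc
hsa-miR-3685 (chr12:95309928-95309949, plus strand): uUUCCUACccuaccugaagacu

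The remaining protein-coding genes that were lower under Comp.4 fell into 3 patterns against vehicle. In the first, Comp.2 alone stood apart. ABCA12, a lipid transporter, read 6.25 and 5.89 under Comp.2, 4.90 and 4.80 under Comp.4 and 4.86 and 4.73 with vehicle (-1.22, SE 0.13). SULF2, which removes sulfate groups from heparan sulfate outside the cell, read 8.64 and 8.66, 7.63 and 7.75, and 7.62 and 7.51 (-0.97, SE 0.08). ACER2, a ceramidase, had -0.83 (SE 0.11), the collectrin gene CLTRN -0.79, EFCAB10 -0.76, C1orf116 -0.71 and the orphan receptor gene GPRC5A -0.65. Each was the 1 member of its list to pass for ABCA12 (41 ABC transporters, median -0.03), SULF2 (19 sulfatase and matrix genes, median -0.16) and ACER2 (26 genes of ceramide and sphingosine, median 0.0097).

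Near this pattern, CYFIP2, a subunit of the actin-regulating WAVE complex, the heat shock protein gene HSPA4L and the complement gene C3 rose mainly under Comp.2, with Comp.4 a little above vehicle. C3 read 8.68 and 8.74 under Comp.2, 8.04 and 8.07 under Comp.4 and 7.92 and 7.84 with vehicle (-0.65, SE 0.07), and CYFIP2 and HSPA4L had -0.68 and -0.63. HSPA4L was the 1 of 13 heat shock genes in the fixed list to pass. HSPA2, another member of the heat shock family, had -0.54 with vehicle between the compounds.

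In the second pattern Comp.4 alone stood apart, below the other groups. C5, the complement component, read 8.98 and 8.89 under Comp.2, 8.22 and 8.33 under Comp.4 and 8.84 and 8.76 with vehicle (-0.65, SE 0.08). SAP130, a subunit of the SIN3 deacetylase complex, read 8.87 and 8.90, 8.37 and 8.36, and 8.89 and 8.85 (-0.52, SE 0.07). LENG8 had -0.67, and METTL2B, a tRNA methyltransferase gene, -0.60.

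In the third, vehicle lay between the compounds. F5, coagulation factor V, read 6.69 and 6.41 under Comp.2, 5.26 and 5.40 under Comp.4 and 5.91 and 5.88 with vehicle. It was 2.33-fold lower under Comp.4 than under Comp.2 (log2 -1.22, SE 0.11) and the 1 of 23 coagulation genes to pass. FBN2, a fibrillin of elastic microfibrils, had -0.77, the glucose transporter gene SLC2A3 -0.67, the mucin gene MUC13 -0.67, the zinc finger gene ZNF841 -0.65 and CYGB, which encodes cytoglobin, -0.64. TCP11L1 had -0.62, the aminoacylase gene ACY3 -0.61, E2F7, a repressor of E2F target genes, -0.58, the helicase gene HELZ -0.56 and TGFB2, a TGF-β ligand, -0.52. SLC2A3 was the 1 of 23 genes of glucose uptake and glycolysis to pass (median 0.0030) and TGFB2 the 1 of 21 TGF-β genes (median -0.11).

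Beside the stress response and histone genes and ULBP1, 5 protein-coding genes were higher under Comp.4. ETV4, an ETS factor of the PEA3 group, read 6.92 and 6.72 under Comp.2, 7.54 and 7.74 under Comp.4 and 7.39 and 7.30 with vehicle (0.82, SE 0.10). It was the 1 of 20 PEA3 and MAPK feedback genes to pass, and DUSP6, a phosphatase of ERK in that list, had 0.37 (adjusted p = 0.116). NAA38, a subunit of an N-terminal acetyltransferase, had 0.63 (SE 0.08), RSL24D1 of large ribosomal subunit assembly 0.62 (SE 0.08), MTFP1 of mitochondrial fission 0.56 (SE 0.07) and the ribosomal protein gene RPL27 0.50 (SE 0.07). For RPL27 the arrays read 10.51 and 10.49 under Comp.2, 11.005 and 10.998 under Comp.4 and 10.70 and 10.74 with vehicle. Its limma adjusted p of 0.0493 was the largest among the higher genes.

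For most genes the data bound the difference in array signal between the compounds. The 95% interval lay within 1.5-fold in either direction for 20575 of the 22395 genes (91.9%) and within 2-fold for 22258 (99.4%), with no adjustment for the number of genes. Among the 11197 brighter genes the counts were 10517 (93.9%) and 11142 (99.5%). Fold changes of dim genes come out too small on these arrays, so their intervals do not bound the difference in transcript level. None of 13 genes listed as histone acetyltransferases passed (median -0.10), a list that also holds the tubulin acetyltransferase gene ATAT1. CREBBP had -0.42 (-0.61 to -0.23, adjusted p = 0.102), KAT6B -0.26 (-0.45 to -0.08) and EP300 -0.25 (-0.45 to -0.04, adjusted p = 0.263), so a level up to 0.61 lower for CREBBP lies within the interval. None of 17 deacetylase genes passed (median -0.0020), with SIRT7 at -0.26 (-0.48 to -0.03) and HDAC5 at 0.17 (-0.04 to 0.39). None of 22 NF-κB targets passed (median 0.12), with RELB at 0.48 (0.19 to 0.78) and NFKB2 at 0.45 (0.22 to 0.69), and none of 14 cholesterol synthesis genes (median 0.09), with LSS at 0.32 (0.16 to 0.48) and MVK at 0.29 (0.06 to 0.51). With the variance trend 3 acetyltransferase genes were lower, 3 NF-κB targets and 1 cholesterol gene higher, and 0 deacetylase genes passed. A p that misses the threshold does not show that the compounds act alike on these genes.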

How the data were processed

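RNA from A549 cells was hybridised to 6 Affymetrix whole-transcript arrays (vehicle, Comp.2 and Comp.4, 2 each). The deposited values are log2 levels per probe set that the authors made with RMA, per the submitters' processing notes; the same notes list Expression Console 1.3.1 (Affymetrix) and version 2.0 of the Transcriptome Analysis Console. RMA equalises the arrays, so a shift shared by most transcripts cannot be seen, and its floor makes fold changes of dim genes too small; the number of arrays limits the precision.

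Of 53617 probe sets, 23871 had 1 gene symbol, 1842 several and 27904 were unnamed here. Probe sets without a single symbol were not tested; Entrez numbers matched a RefSeq table (GRCh38.p14) for 22569 and updated 90 symbols. The brightest probe set stood for each of 632 genes with several, leaving 22395 genes. limma 3.58.1 (R 4.3.3) fitted a mean per group to all 6 arrays (3 residual and 3.71 prior degrees of freedom); the two-sided contrast was adjusted by Benjamini-Hochberg over all genes, threshold 0.05. The script was tested on simulated data. Two-sided permutation of 2 arrays against 2 cannot reach the threshold, so none was run.

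Replicate numbers 1 and 2 recur in each group, but same-numbered arrays did not deviate together (r = -0.042 between the compounds over genes), so no block was used. Named were all protein-coding genes past the threshold, the 10 largest others in each direction, up to 3 members per list past it (or the 2 largest brighter ones), EP300 and CREBBP (1 other gene in the rule is not analysed here). Further examples were picked with their values in view. The members and lists were chosen with earlier results of these data known. Lists are described by counts and medians, with no test of the list. Tried as alternatives were other variance models, filters, scalings, probe set rules, a replicate block and leaving out each array.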

Additional observations from a re-analysis of the deposited data

How the results depend on the processing

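All 83 genes kept their direction wherever they were tested (78 among the brighter genes and 43 among protein-coding genes, each all in the same direction), which arrays that do not overlap fix in advance when an array is left out. Counts moved with the estimate of the spread. No gene was higher and none lower (0 and 0) with the 4 compound arrays alone (1448 and 1400 at an unadjusted p under 0.05 in limma) or with the replicate block (0 and 0; 1609 and 1518 unadjusted; smallest adjusted p 0.0517); replicate numbers are not known to pair the arrays. Leaving out each array gave 0 to 1 higher and 0 lower, with 1342 to 1641 higher and 1328 to 1532 lower unadjusted; these fits have fewer residual degrees of freedom. A variance trend gave 484 higher and 591 lower, the 11197 brighter genes alone gave 324 and 392, and there were 1 and 1 when all 53617 probe sets were tested (2910 and 3315 unadjusted), and 14 and 33 among protein-coding genes alone. A robust prior (38 and 38), the mean of a gene's probe sets (45 and 39), centring on brighter protein-coding genes (47 and 36) and repeated quantile normalization (33 and 31) stayed within 1.5 times. Quantile normalization kept 33 and 31 of the genes, centring 43 and 36. Medians near 0 changed sign with the scaling for the deacetylases (-0.0020, 0.01525 centred), the BCL2 family (-0.0017, 0.01554 centred) and mitosis (0.0021, -0.01082 quantile). The counts by position against vehicle (15, 17, 39 and 12) stayed within 1.5 times under all alternatives run on them. List medians moved by more than the spread between array pairs in 60 cases and by less in 390.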

Other observations

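A pair of gene groups was looked at after members had passed, and is given as values. Of 53 measured ribosomal protein genes, RPL27 was the 1 that passed, and the group's median difference between the compounds was 0.02 (log2, Comp.4 minus Comp.2), with 31 above 0 and a range from -0.56 to 0.56. Of 22 measured complement genes, C3 and C5 were lower under Comp.4 and none was higher; the median was -0.0091 (0.008122 when centred on brighter protein-coding genes), and CFI, a protease that inactivates C3b, had -0.21 (adjusted p = 0.235).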
